A study of Mus musculus with 12 samples.

Results

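The nuclear factor I (NFI) genes Nfia, Nfib, Nfic and Nfix, the early B cell factor (EBF) genes Ebf1, Ebf2 and Ebf3, and the E protein gene Tcf4 were followed through reprogramming of mouse fibroblasts. They were taken as a list of 8 gene names out of 37583 genes in the count tables, with no cut on a measured value. Earlier results of these data were known when the list was chosen. All 8 were found, and all 8 were among the 16240 genes that passed the filter on low counts. Ebf2 passed through its fibroblast libraries alone, so it had to differ from the other groups. Poly-A RNA-seq was done on 12 libraries, 2 replicates in each of 6 groups, all of the labelled strain background 129SV/Jae/C57BL6J. Mouse embryonic fibroblasts (MEF) grown in MEF medium were the starting cells. From cultures under reprogramming, held in ES medium to which dox and AA were added, came 4 sorted populations that all carried the surface marker SSEA1. On day 3, d3_Eff cells were CD73+ Sca1- and d3_Ineff cells were CD73- Sca1+. On day 6, d6_Eff cells were EpCAM+ Sca1- and d6_Ineff cells were EpCAM- Sca1+. Induced pluripotent stem cells (iPSC) grown in ES medium were the end point. The names Eff and Ineff stand for the 2 sorting gates of each day. The labels give no transgene, clone or animal for any group, and whether the replicates came from separate cultures is not stated, so p-values measure only the spread between these libraries.

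NFI proteins bind a palindrome built from TTGGC half-sites as homodimers or heterodimers, and all members of the family share a conserved DNA-binding domain. They are known from lung, brain, muscle, tooth and fibroblast biology, where they act both as activators and as repressors. EBF proteins are helix-loop-helix factors with a zinc-coordinating DNA-binding domain. Ebf1 is known for B lymphocyte specification, Ebf2 for brown adipocyte and bone marrow stromal cells, and Ebf3 for neuronal and mesenchymal lineages. Tcf4 is a basic helix-loop-helix E protein, unrelated to the Wnt effector Tcf7l2 that was once given the same name. E proteins pair with tissue-restricted partners such as Twist1 on E boxes, and Id proteins sequester them.

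Levels are given as CPM, read counts scaled to the size of each library with TMM factors, and levels of different genes are compared only per kilobase (kb) of exon. Libraries held 9284060 to 22763548 gene counts. Reads outside genes were 47.2% of the total for MEF replicate 2, 24.1% for d6_Eff replicate 2 and 5.10 to 11.7% for the remaining 10 libraries. Many results that rest on MEF replicate 2 or d6_Eff replicate 2 are therefore given with and without them. Not every call against MEF that depended on them is listed. The summed level of 14 fibroblast markers was 56497 and 20310 CPM in the MEF libraries, 4953 to 8877 CPM on day 3, 547 and 802 CPM in d6_Eff, 5411 and 5734 CPM in d6_Ineff, and 123 and 128 CPM in iPSC. The summed level of 12 pluripotency markers ran the other way, at 1.39 and 2.51 CPM in MEF, 262 and 267 CPM in d6_Eff, 50.1 and 52.2 CPM in d6_Ineff, and 8562 and 8963 CPM in iPSC. In the intermediates and iPSC most of the fibroblast marker sum was Vim. Vim had 4586 to 7706 CPM on day 3, 376 and 540 in d6_Eff and 3980 and 4222 in d6_Ineff. In MEF it had 6322 and 6833 CPM, a small part of the sum in replicate 1. In bulk RNA, fewer cells of a type and less RNA per cell cannot be told apart. The part of a change in cell makeup in the results below was not tested.

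**Figure D1:**
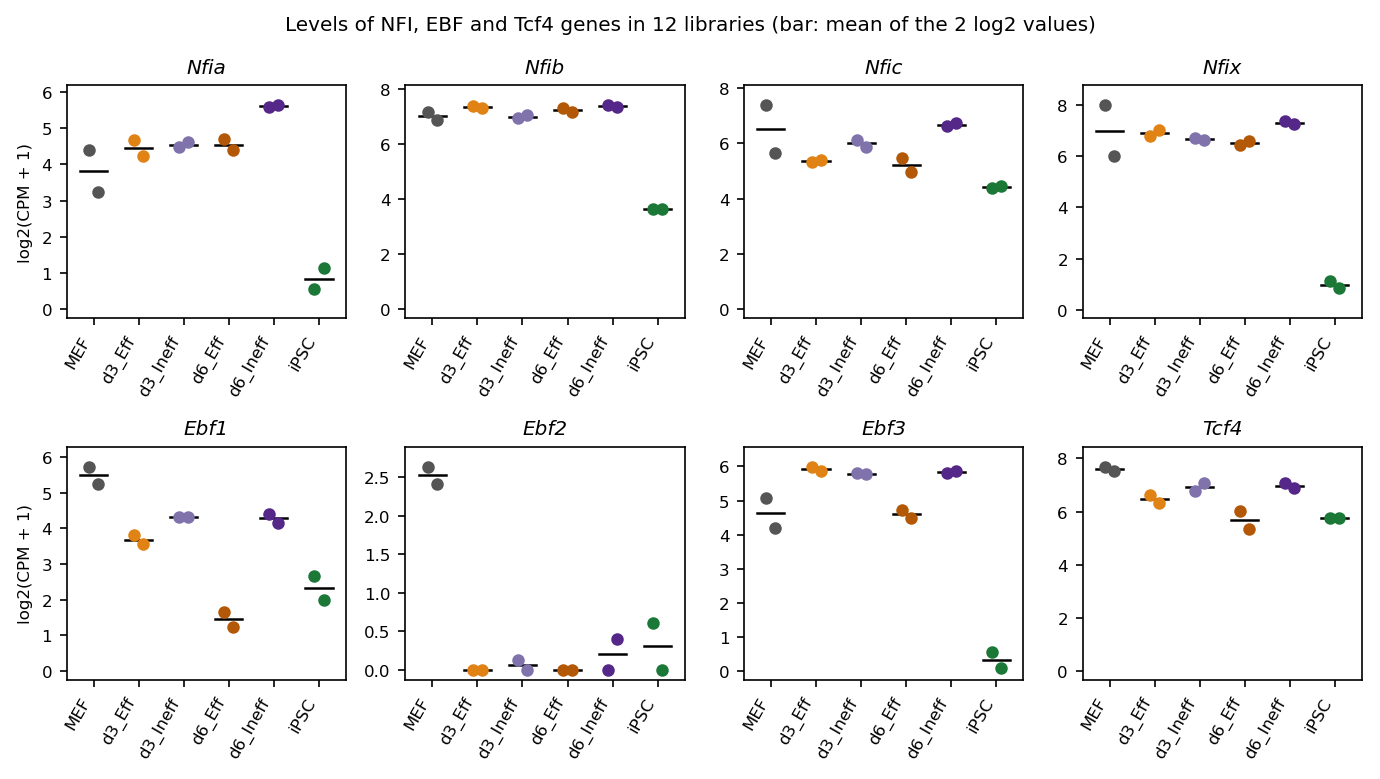
Levels of the 8 genes in each library as log2(CPM + 1), 1 point per library and 6 groups along the axis, with a bar at the mean of the 2 log2 values. Nfia, Nfib, Nfix and Ebf3 are well above 0 up to day 6 and low in iPSC, whereas Ebf1 was already low in d6_Eff and Ebf2 was present in MEF.

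The NFI genes held the first rank per kb in every group. Nfix ranked first in MEF and in all 4 intermediate populations, at 21.7 ± 18.5 CPM per kb in MEF and 12.3 ± 0.868 CPM per kb in d6_Eff (SD, n = 2 each). Nfic ranked first in iPSC, at 3.06 ± 0.112 CPM per kb, where Nfix had 0.133 ± 0.0356 CPM per kb (SD, n = 2 each). The NFI genes summed to 47.6 ± 32.5 CPM per kb in MEF, 35.0 ± 1.17 in d3_Eff, 34.0 ± 1.35 in d3_Ineff, 29.8 ± 1.57 in d6_Eff, 52.1 ± 0.443 in d6_Ineff and 4.04 ± 0.116 in iPSC (SD, n = 2 each). Nfic supplied 75.7 ± 0.595% of that sum in iPSC, against 17.2 to 32.4% in the other groups, and Nfix supplied 3.30 ± 0.975% in iPSC, against 41.3 to 46.4% elsewhere. These shares and sums are descriptions without a test.

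Promoter windows of these contrasting members, Nfic and Nfix, are shown because they were the most and the least retained of the NFI genes in iPSC. Each runs 5′ to 3′ along the gene from 250 bases before to 50 bases after a RefSeq start (assembly GRCm38.p6), with CpG dinucleotides in capitals. The Nfic window lies at chr10:81427124-81427423 on the minus strand, and the Nfix window at chr8:84780033-84780332 on the minus strand, the first of 4 Nfix windows listed.
Nfic: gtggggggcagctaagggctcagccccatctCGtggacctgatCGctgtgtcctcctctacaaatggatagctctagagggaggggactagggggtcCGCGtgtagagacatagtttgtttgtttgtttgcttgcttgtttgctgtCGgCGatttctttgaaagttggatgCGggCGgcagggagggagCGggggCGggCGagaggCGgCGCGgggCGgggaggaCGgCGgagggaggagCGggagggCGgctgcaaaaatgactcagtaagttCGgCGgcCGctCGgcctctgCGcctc
Nfix: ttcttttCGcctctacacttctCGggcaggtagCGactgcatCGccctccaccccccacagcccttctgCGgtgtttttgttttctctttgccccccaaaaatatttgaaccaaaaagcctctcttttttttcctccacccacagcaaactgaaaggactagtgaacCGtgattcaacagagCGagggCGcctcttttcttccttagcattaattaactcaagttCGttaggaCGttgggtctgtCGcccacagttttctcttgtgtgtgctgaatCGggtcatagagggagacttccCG
The Nfic window held 24 CpG, or 0.90 of the number its C and G content predicts, and the Nfix window held 13, or 0.739. The median ratio over all 32851 windows was 0.384. The other Nfix windows had ratios of 0.1645, 0.4576 and 0.1379, so that the printed Nfix window had the highest of its 4.

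Nfix (ENSMUSG00000001911), linked to muscle fibre maturation and neural progenitors, was still abundant on day 6 and nearly gone in iPSC. It had 256 and 63.5 CPM in MEF, 110 and 129 in d3_Eff, 106 and 100.4 in d3_Ineff, 86.2 and 95.3 in d6_Eff, 165 and 153 in d6_Ineff, and 1.16 and 0.79 in iPSC. Every intermediate library lay between the 2 MEF libraries, which themselves differed 4.02-fold. Nfix fell by 6.50 ± 0.61 on the log2 scale in iPSC relative to d6_Eff (SE, adjusted p = 1.57e-05), a 90.4-fold difference. It fell by 7.31 ± 0.62 on the log2 scale in iPSC relative to d6_Ineff (SE, adjusted p = 4.82e-06). For d6_Eff against d6_Ineff the log2 fold change was -0.81 ± 0.45 (SE, adjusted p = 0.268), which was not called. It was called in 5 of 19 alternative fits. Among them were those without the filter on low counts (adjusted p = 0.0132) and with only these groups in the fit (adjusted p = 2.47e-04).

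Nfib (ENSMUSG00000008575), needed in the mouse for lung and forebrain development, followed a like course. Nfib had 140.3 and 117 CPM in MEF, 165 and 155 in d3_Eff, 123 and 129.9 in d3_Ineff, 157 and 141 in d6_Eff, 167 and 159 in d6_Ineff, and 11.6 and 11.5 in iPSC. Its 10 libraries outside iPSC spanned 117 to 167 CPM. Nfib fell by 3.69 ± 0.18 on the log2 scale in iPSC relative to d6_Eff (SE, adjusted p = 2.77e-07), or 12.9-fold. Of the comparisons among MEF and the intermediates none passed the test for Nfib in the fit of all 12 libraries. Without MEF replicate 1, Nfib was called higher in d3_Eff and in d6_Ineff relative to MEF (adjusted p = 0.0257 and 0.0191), and with DESeq2 in d6_Ineff relative to d3_Ineff (adjusted p = 0.0426). The interval for d6_Eff over d6_Ineff ran from -0.53 to 0.26 on the log2 scale (95%).

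Nfia (ENSMUSG00000028565), a driver of gliogenesis in mouse and chick, was highest in d6_Ineff. It had 20.2 and 8.52 CPM in MEF, 24.8 and 18.0 in d3_Eff, 21.3 and 23.5 in d3_Ineff, 25.0 and 20.03 in d6_Eff, 47.0 and 48.7 in d6_Ineff, and 0.47 and 1.19 in iPSC. Both d6_Ineff libraries lay above all the others. Nfia fell by 4.83 ± 0.50 on the log2 scale in iPSC relative to d6_Eff (SE, adjusted p = 3.15e-05), or 28.4-fold, with a log2 fold change of -4.24 without iPSC replicate 1 and -5.56 without iPSC replicate 2. Nfia rose in d6_Ineff relative to MEF by 1.71 ± 0.40 on the log2 scale (SE, adjusted p = 0.00723), and by 2.50 without MEF replicate 1. That call was lost with only MEF and d6_Ineff in the fit (adjusted p = 0.0557). For d6_Eff against d6_Ineff the log2 fold change was -1.09 ± 0.39 (SE, adjusted p = 0.0884), which was not called. It was called in 7 of 19 alternative fits (adjusted p from 3.96e-04 to 0.0373), among them those without either MEF library and with DESeq2.

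Nfic (ENSMUSG00000055053), known for tooth root formation and for expression in many adult tissues, was the NFI gene with the smallest difference between iPSC and the intermediates. Nfic had 163 and 48.9 CPM in MEF, 39.0 and 40.9 in d3_Eff, 68.8 and 56.5 in d3_Ineff, 42.8 and 29.8 in d6_Eff, 95.8 and 105 in d6_Ineff, and 19.8 and 20.8 in iPSC. On each day both Eff libraries lay below both Ineff libraries. Nfic fell by 1.47 ± 0.42 on the log2 scale in d6_Eff relative to d6_Ineff (SE, adjusted p = 0.0390). This call was lost without any 1 of the 4 day 6 libraries, without d3_Eff replicate 2 or without either iPSC library (adjusted p from 0.0555 to 0.220). On day 3 the log2 fold change of Eff over Ineff was -0.65 ± 0.41 (SE, adjusted p = 0.801). The log2 fold change of iPSC over d6_Eff was -0.84 ± 0.42 (SE, adjusted p = 0.160), and it was called in 6 of 19 alternative fits (adjusted p from 1.94e-04 to 0.0114), among them those without either MEF library. Nfic fell by 2.31 ± 0.43 on the log2 scale in iPSC relative to d6_Ineff (SE, adjusted p = 0.00134).

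**Figure D2:**
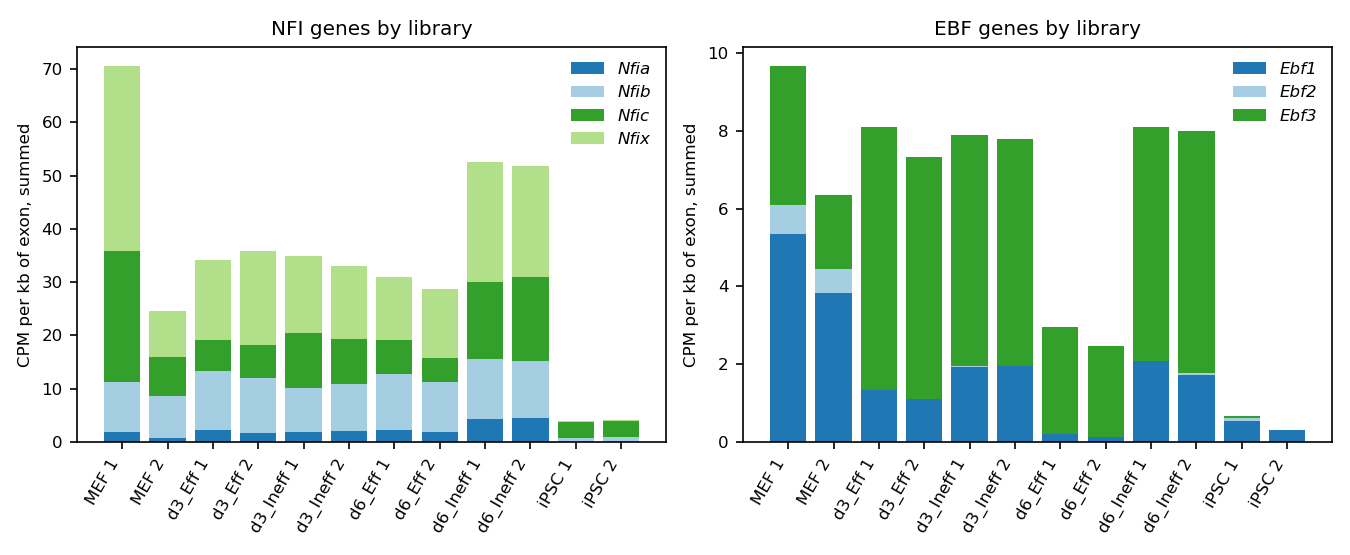
Stacked levels in CPM per kb of exon for the NFI genes (left) and the EBF genes (right), 1 bar per library. The NFI bars stay high up to day 6 and are small and mostly Nfic in iPSC, while the EBF bars turn from mostly Ebf1 in MEF to mostly Ebf3 in the intermediates.

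The EBF genes differed in makeup between MEF and day 3, while their sums overlapped. The sum was 8.01 ± 2.34 CPM per kb in MEF, 7.71 ± 0.549 in d3_Eff, 7.84 ± 0.0689 in d3_Ineff, 2.71 ± 0.345 in d6_Eff, 8.04 ± 0.0831 in d6_Ineff and 0.491 ± 0.255 in iPSC (SD, n = 2 each). Ebf1 supplied 57.8 ± 3.60% of the sum in MEF, 15.8 ± 0.846% in d3_Eff, 24.9 ± 0.370% in d3_Ineff, 6.51 ± 1.27% in d6_Eff, 23.6 ± 2.86% in d6_Ineff and 89.5 ± 11.6% in iPSC (SD, n = 2 each). Ebf3 supplied 33.4 ± 5.05% in MEF and between 75.1 and 93.5% in the 4 intermediate populations. The iPSC share rests on the low sum there.

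Promoter windows of Ebf1 and Ebf3 are shown because these paralogs separated from each other in the same cells. The Ebf1 window lies at chr11:44617850-44618149 on the plus strand, the first of 2 listed, and the Ebf3 window at chr7:137314396-137314695 on the minus strand, with CpG in capitals as before.
Ebf1: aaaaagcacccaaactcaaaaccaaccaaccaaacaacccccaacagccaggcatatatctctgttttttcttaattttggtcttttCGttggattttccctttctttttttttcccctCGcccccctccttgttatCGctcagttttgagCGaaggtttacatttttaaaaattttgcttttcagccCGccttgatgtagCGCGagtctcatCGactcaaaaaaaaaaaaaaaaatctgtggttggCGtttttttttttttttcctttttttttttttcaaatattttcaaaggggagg
Ebf3: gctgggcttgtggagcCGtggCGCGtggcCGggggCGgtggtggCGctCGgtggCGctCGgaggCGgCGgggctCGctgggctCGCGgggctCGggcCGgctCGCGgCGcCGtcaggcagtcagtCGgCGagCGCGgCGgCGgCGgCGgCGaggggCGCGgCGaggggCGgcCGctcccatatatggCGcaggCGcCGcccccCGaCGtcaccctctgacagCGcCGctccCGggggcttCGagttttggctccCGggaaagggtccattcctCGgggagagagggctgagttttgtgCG
The Ebf3 window was 77.0% G and C with 46 CpG, and the Ebf1 window was 36.7% G and C with 9 CpG. Relative to base composition, both held about as many CpG as predicted, at 1.08 for Ebf3 and 0.954 for Ebf1, and the second Ebf1 window had 0.8186.

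Ebf1 (ENSMUSG00000057098), in mice the specification factor of B lymphocytes and also expressed in stromal and fat precursors, separated d6_Eff from d6_Ineff by the largest fold of the 8 genes, leaving out Ebf2, which had no counts in d6_Eff. Ebf1 had 52.1 and 37.4 CPM in MEF, 13.0 and 10.9 in d3_Eff, 18.9 and 19.1 in d3_Ineff, 2.14 and 1.35 in d6_Eff, 20.3 and 16.8 in d6_Ineff, and 5.33 and 2.96 in iPSC. The d6_Eff libraries were the lowest of all 12, below both iPSC libraries. Ebf1 fell by 3.39 ± 0.36 on the log2 scale in d6_Eff relative to d6_Ineff (SE, adjusted p = 2.19e-04), or 10.5-fold, and this call held in every alternative fit. It fell by 2.75 ± 0.36 on the log2 scale in d6_Eff relative to d3_Eff (SE, adjusted p = 7.17e-04). In d6_Ineff relative to d3_Ineff the log2 fold change was -0.04 ± 0.31 (SE, adjusted p = 0.991).

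The difference between Eff and Ineff in Ebf1 was larger on day 6 than on day 3. On day 3 the log2 fold change of Eff over Ineff was -0.67 ± 0.32 (SE, adjusted p = 0.633), which was not called. Day 6 minus day 3 gave -2.72 ± 0.47 on the log2 scale (SE, adjusted p = 0.0212). The adjusted p was between 0.0686 and 0.109 when d3_Eff replicate 1, d3_Eff replicate 2, d3_Ineff replicate 1, d3_Ineff replicate 2, d6_Eff replicate 2, d6_Ineff replicate 1 or d6_Ineff replicate 2 was left out. The change itself stayed between -2.86 and -2.45 in those 7 fits. Of the 8 genes Ebf1 was the only one called in this comparison of differences in the fit of all 12 libraries, in which 1.39% of all genes were called, 0.296% in the positive and 1.09% in the negative direction. Ebf3 was called there in 7 of 19 alternative fits (adjusted p from 8.34e-04 to 0.0218), Nfix in 4 (adjusted p from 0.00361 to 0.00987) and Nfia in 1 (adjusted p = 0.0341).

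Against iPSC, Ebf1 took opposite directions in the day 6 populations. Ebf1 rose in iPSC relative to d6_Eff by 1.25 ± 0.36 on the log2 scale (SE, adjusted p = 0.0220). Without d6_Eff replicate 2 the change was 0.96 (adjusted p = 0.160), and without iPSC replicate 1 it was 0.75 (adjusted p = 0.260). The call was also lost without both libraries rich in reads outside genes (adjusted p = 0.0598) and with only iPSC and d6_Eff in the fit (adjusted p = 0.0673). Ebf1 fell by 2.14 ± 0.34 on the log2 scale in iPSC relative to d6_Ineff (SE, adjusted p = 3.98e-04). Relative to MEF it fell by 1.91 ± 0.32 on the log2 scale in d3_Eff and fell by 1.24 ± 0.32 on the log2 scale in d3_Ineff (SE, adjusted p = 8.34e-04 and 0.0124). The d3_Ineff call was lost without either d3_Ineff library (adjusted p = 0.0750 and 0.0737).

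Ebf3 (ENSMUSG00000010476), known from neuronal and mesenchymal development, moved differently from its paralog. Ebf3 had 32.9 and 17.5 CPM in MEF, 62.5 and 57.3 in d3_Eff, 54.8 and 53.8 in d3_Ineff, 25.3 and 21.5 in d6_Eff, 55.6 and 57.3 in d6_Ineff, and 0.47 and 0.07 in iPSC. All 4 day 3 libraries and both d6_Ineff libraries lay above every MEF library. Ebf3 rose in d3_Eff relative to MEF by 1.23 ± 0.34 and in d3_Ineff relative to MEF by 1.09 ± 0.34 on the log2 scale (SE, adjusted p = 0.0154 and 0.0325). It rose in d6_Ineff relative to MEF by 1.15 ± 0.34 on the log2 scale (SE, adjusted p = 0.0255). The d3_Eff call was lost without either d3_Eff library (adjusted p = 0.0882 and 0.0563) and the d6_Ineff call without either d6_Ineff library (adjusted p = 0.0917 and 0.109). The d3_Ineff call was lost without MEF replicate 2 or without any 1 library of d3_Eff, d3_Ineff or d6_Ineff (adjusted p from 0.0520 to 0.125). With only the compared groups in the fit none of these 3 calls against MEF was made (adjusted p from 0.0697 to 0.112).

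Ebf3 then fell in the Eff population. It fell by 1.27 ± 0.34 on the log2 scale in d6_Eff relative to d6_Ineff (SE, adjusted p = 0.0297), or 2.41-fold. Between the days, it fell by 1.36 ± 0.34 on the log2 scale in d6_Eff relative to d3_Eff (SE, adjusted p = 0.0300). The first of these was lost without any 1 of the 4 day 6 libraries or d3_Eff replicate 2 (adjusted p from 0.0543 to 0.179), and the second without any 1 of the 4 Eff libraries (adjusted p from 0.0883 to 0.204). The iPSC level was at 11 and 1 counts. Ebf3 fell by 6.24 ± 0.49 on the log2 scale in iPSC relative to d6_Eff (SE, adjusted p = 4.92e-06), or 75.6-fold. At so few iPSC counts the log2 fold change was -8.34 without iPSC replicate 1 and -5.61 without iPSC replicate 2.

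Ebf2 (ENSMUSG00000022053), a factor of brown fat and bone marrow stromal cells, was a MEF transcript. It had 101 and 31 counts in MEF, or 5.21 and 4.33 CPM. In the other groups it had 0 and 0 counts in d3_Eff, 2 and 0 in d3_Ineff, 0 and 0 in d6_Eff, 0 and 8 in d6_Ineff, and 12 and 0 in iPSC. The MEF libraries lay above all the others. Ebf2 passed the filter on low counts through MEF alone, so the filter set its differences from MEF. The folds and calls against MEF below are descriptions. Taking 3 counts over a group as the floor, Ebf2 was at least 67.3-fold lower in d3_Eff and at least 62.8-fold lower in d6_Eff than in MEF. The calls of d3_Eff and d6_Eff against MEF were lost with DESeq2 (adjusted p = 0.0873 and 0.0858), the first also without either d3_Eff library (adjusted p = 0.0659 and 0.0700) and the second without d6_Eff replicate 1 (adjusted p = 0.0534). Against the 2 counts in d3_Ineff, the ratio of MEF to d3_Ineff was 112, with an exact 95% interval from 30.4 to 933 that covers counting error only. The call of d3_Ineff against MEF was lost with DESeq2, without MEF replicate 1 or without either d3_Ineff library (adjusted p from 0.0553 to 0.228). The difference of d6_Ineff against MEF was not called (adjusted p = 0.0656) but was in 4 of 19 alternative fits (adjusted p from 0.00335 to 0.0480), and that of iPSC against MEF was not called (adjusted p = 0.0643) but was in 8 of 19 (adjusted p from 0.00641 to 0.0495). Among the other 5 groups no difference was called in the fit of all 12 libraries, and iPSC over d6_Eff was called without the filter on low counts (adjusted p = 0.0398), where iPSC replicate 1 held all the counts.

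Tcf4 (ENSMUSG00000053477), the E protein of plasmacytoid dendritic cells and of the developing nervous system, was lowest in d6_Eff and iPSC. Tcf4 had 204 and 184 CPM in MEF, 97.8 and 78.5 in d3_Eff, 109 and 135 in d3_Ineff, 64.5 and 39.4 in d6_Eff, 133 and 116 in d6_Ineff, and 52.6 and 53.3 in iPSC. The iPSC libraries lay between the d6_Eff libraries, and on each day both Eff libraries lay below both Ineff libraries. Tcf4 fell by 1.26 ± 0.24 on the log2 scale in d6_Eff relative to d6_Ineff (SE, adjusted p = 0.00539), or 2.40-fold, and the call was lost without d6_Eff replicate 2 (adjusted p = 0.0537). It fell by 1.14 ± 0.24 on the log2 scale in d3_Eff relative to MEF (SE, adjusted p = 0.00322). In d3_Ineff and d6_Ineff relative to MEF the log2 fold changes were -0.67 ± 0.24 and -0.64 ± 0.24 (SE, adjusted p = 0.0538 and 0.0633). Neither was called, but they were in 8 and 7 of 19 alternative fits. Without MEF replicate 2 they were -0.82 and -0.79. The log2 fold change of d6_Eff over d3_Eff was -0.76 ± 0.24 (SE, adjusted p = 0.0754), which was called in 7 of 19 alternative fits (adjusted p from 0.0105 to 0.0438). For iPSC over d6_Eff it was 0.03 ± 0.24, with an interval from -0.56 to 0.61 (95%, adjusted p = 0.961). That value was -0.29 in the fits without d6_Eff replicate 2 or without both libraries rich in reads outside genes.

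**Figure D3:**
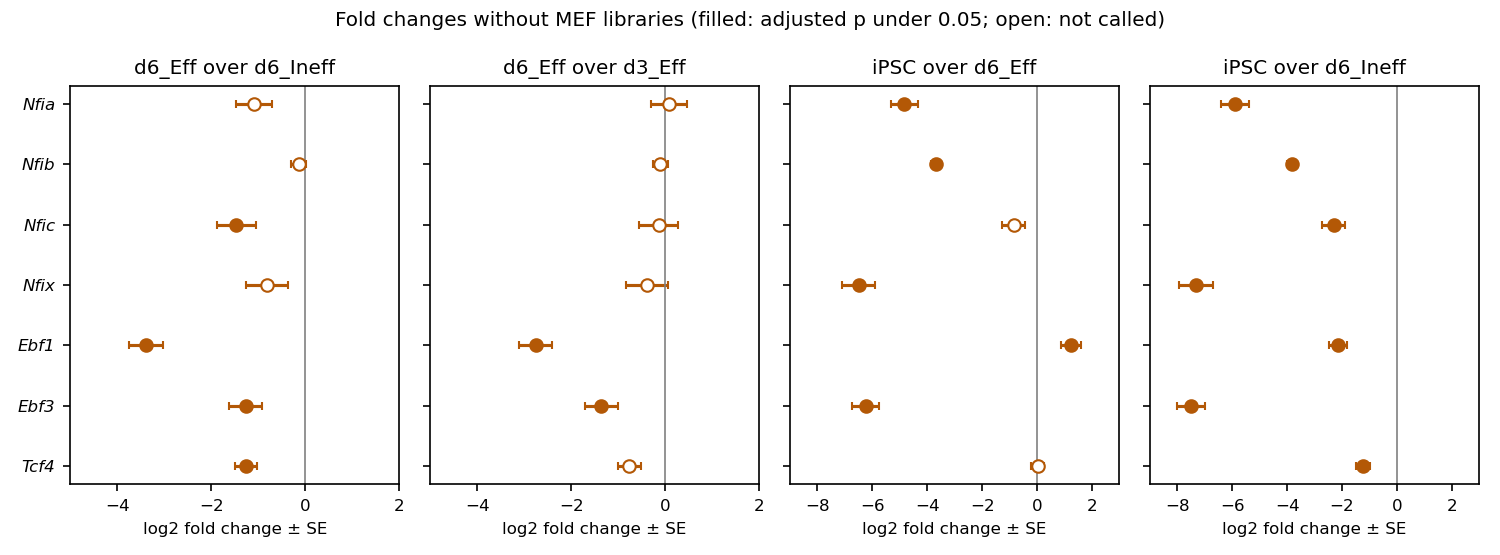
Log2 fold changes with SE (12 libraries in 1 fit) of 7 genes in 4 comparisons that use no MEF library, filled where the adjusted p is under 0.05. Ebf1 stands lowest among d6_Eff over d6_Ineff values and alone rises in iPSC over d6_Eff, where Nfia, Nfib, Nfix and Ebf3 are far below 0.

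As a list, the 8 genes fell more often than they rose. In iPSC relative to d6_Eff, Nfia, Nfib, Nfix and Ebf3 fell and Ebf1 rose, where 29.6% of all genes tested were called, 15.9% lower and 13.6% higher. Relative to d6_Ineff, 7 of 8 fell in iPSC and none rose, where 43.6% of all genes were called, 23.0% lower and 20.6% higher. Relative to MEF the same 7 genes, all but Ebf2, fell in iPSC and none rose, where 52.7% of all genes were called, 26.7% lower and 26.0% higher, and the number of the 8 called was 7 or 8 in every alternative fit. The median log2 fold change over the 8 genes was -3.79 in iPSC over MEF, where that over all genes was 0.04. That median includes Ebf2, whose difference from MEF was set by the filter on low counts. These comparisons share iPSC libraries and are not independent.

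On day 6, Nfic, Ebf1, Ebf3 and Tcf4 fell in d6_Eff relative to d6_Ineff and none of the 8 rose, where 14.6% of all genes were called, 9.25% lower and 5.38% higher. The number called ranged from 1 to 6 when 1 library was left out. The median was -1.27 on the log2 scale, or -1.17 with Ebf2 at its bound, beside 0.00 over all genes. Beside this, 9 of 14 fibroblast markers fell in d6_Eff relative to d6_Ineff and none rose. On day 3, none of the 8 was called by edgeR between d3_Eff and d3_Ineff, where 0.400% of all genes were, 0.160% higher and 0.240% lower. There the libraries of Nfic, Ebf1 and Tcf4 did not overlap, with d3_Eff lower. Those of Nfib, Nfix and Ebf3 did not overlap either, with d3_Eff higher. With 2 libraries a group this is no test, and the share over all genes was not counted. Of the 8, 0 had an unadjusted p under 0.05, DESeq2 called 0, and Nfic was called, lower in d3_Eff, in 3 of 19 alternative fits (adjusted p from 0.0211 to 0.0494).

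Against MEF, the intermediates showed mixed directions. Ebf2, whose difference from MEF was set by the filter on low counts, is among the genes that fell in d3_Eff, d3_Ineff and d6_Eff, so that without it 3, 1 and 3 fell. In d3_Eff 1 gene rose and 4 fell, where 36.5% of all genes were called, 18.0% higher and 18.6% lower. In d3_Ineff 1 rose and 2 fell, where 30.0% of all genes were called, 15.0% higher and 15.0% lower. In d6_Eff none rose and 4 fell, where 42.6% were called, 20.9% higher and 21.7% lower, and in d6_Ineff 2 rose and 1 fell, where 30.8% were called, 15.6% higher and 15.2% lower. Between the days, Ebf1 and Ebf3 fell in d6_Eff relative to d3_Eff and none of the 8 rose, where 9.11% of all genes were called, 4.87% lower and 4.24% higher. For d6_Ineff against d3_Ineff none of the 8 was called by edgeR, where 4.42% of all genes were, 3.19% higher and 1.23% lower. There 2 of the 8 had an unadjusted p under 0.05, DESeq2 called 1, and Nfia, Nfic and Nfix were all called higher in 5 of 19 alternative fits, among them those without either MEF library.

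The comparisons with MEF are the least certain for the NFI genes. MEF replicate 1 exceeded replicate 2 by 4.02-fold for Nfix, 3.34-fold for Nfic, 2.37-fold for Nfia and 1.89-fold for Ebf3, and by 1.11 to 1.39-fold for Tcf4, Nfib, Ebf2 and Ebf1. Nfix in d3_Eff relative to MEF was 0.92 on the log2 scale without MEF replicate 1 and -1.21 without MEF replicate 2. For d6_Eff relative to MEF it was 0.53 and -1.60 in the same fits. Without MEF replicate 2 it was -1.38 for d3_Ineff and -0.76 for d6_Ineff. Leaving out 1 library took these as high as 0.71 and 1.34. With all 12 libraries Nfix was called against MEF in none of the intermediates. Over 19 alternative fits it was called lower in 2 for d3_Eff, 3 for d3_Ineff, 3 for d6_Eff and 2 for d6_Ineff. Most of these had MEF replicate 1 as the only MEF library. Apart from those it was called lower in d6_Eff without the filter on low counts (adjusted p = 0.00499). With the ratio of reads outside genes as a covariate it was called lower in d3_Ineff (adjusted p = 0.0134). So the direction and call of Nfix against MEF depended on the fit. Nfic fell by 1.41 ± 0.42 on the log2 scale in d3_Eff relative to MEF (SE, adjusted p = 0.0212), but its log2 fold change was -0.28 without MEF replicate 1 (adjusted p = 0.361) and -2.14 without MEF replicate 2. The call was also lost without either d3_Eff library (adjusted p = 0.0833 and 0.103) and with only the compared groups in the fit (adjusted p = 0.0966). Nfic also fell by 1.55 ± 0.42 on the log2 scale in d6_Eff relative to MEF (SE, adjusted p = 0.0117), with -2.27 without MEF replicate 2. This call was lost without MEF replicate 1 (log2 fold change -0.41, adjusted p = 0.146), without d6_Eff replicate 2 (adjusted p = 0.0735) or with only the compared groups in the fit (adjusted p = 0.0831). For Nfic in d3_Ineff relative to MEF the log2 fold change was -0.76 ± 0.41 (SE, adjusted p = 0.196), and -1.45 without MEF replicate 2. It was called lower in 4 of 19 alternative fits. Beside this, the summed fibroblast markers of MEF replicate 1 were 56497 CPM and of replicate 2 were 20310 CPM. Outside MEF and iPSC the largest ratio between replicates was 1.64, for Tcf4 in d6_Eff.

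Genes whose products bind EBF proteins changed in both directions at the RNA level. Zfp423, a zinc finger protein that binds and modulates EBF proteins, had 23.3 and 22.6 CPM in d3_Eff, 39.6 and 39.5 in d6_Eff, 50.6 and 54.0 in d6_Ineff and 18.0 and 12.1 in iPSC, against 1.96 and 0.14 CPM in MEF. Zfp423 rose in d6_Eff relative to MEF by 4.92 ± 0.53 on the log2 scale (SE, adjusted p = 2.52e-05). Zfp521, a related zinc finger that also binds EBF proteins, had 2.54 and 2.00 CPM in d6_Eff and 11.7 and 13.1 in d6_Ineff. Zfp521 fell by 2.44 ± 0.47 on the log2 scale in d6_Eff relative to d6_Ineff (SE, adjusted p = 0.00603), the direction of Ebf1. Zfp423 rose by 3.53 ± 0.52 and Zfp521 fell by 4.56 ± 0.51 on the log2 scale in iPSC relative to MEF (SE, adjusted p = 1.64e-04 and 2.42e-05). The remaining family member, Ebf4, did not exceed 2.99 CPM in any library and was called in none of the 12 comparisons. The median of these 3 genes in iPSC over MEF was -1.53.

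**Figure D4:**
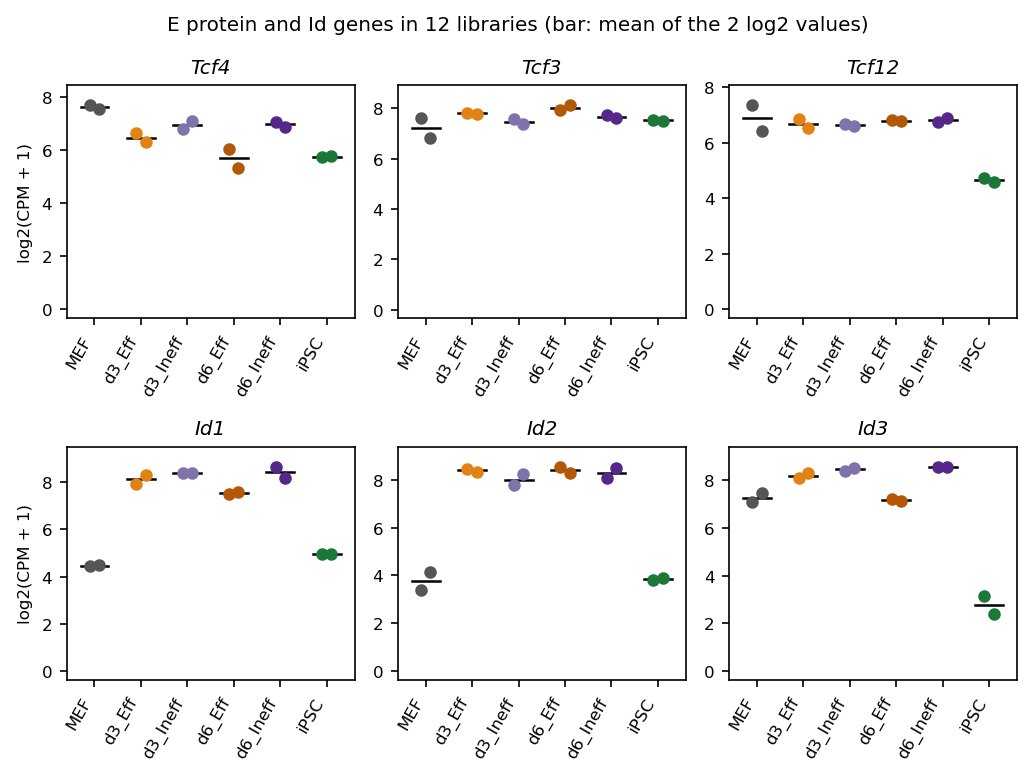
Levels of E protein genes and of Id1, Id2 and Id3 in each library as log2(CPM + 1), 1 point per library, with a bar at the mean of the 2 log2 values. Id1 and Id2 stand high in all intermediates, Tcf12 is low in iPSC alone, and Tcf3 spans 113 to 277 CPM over the 12 libraries.

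Among the E proteins, Tcf4 was the one called between d6_Eff and d6_Ineff. Tcf3 had 183 ± 5.53 CPM in iPSC and 155 ± 59.7 CPM in MEF (SD, n = 2 each), with a log2 fold change of 0.24 ± 0.23 (SE, adjusted p = 0.413). Tcf12 fell by 2.35 ± 0.28 on the log2 scale in iPSC relative to MEF (SE, adjusted p = 3.49e-05), to 24.1 ± 1.79 CPM in iPSC, against 123 ± 55.0 CPM in MEF. The log2 fold change of d6_Eff over d6_Ineff was 0.35 ± 0.23 for Tcf3 (SE, adjusted p = 0.360) and -0.03 ± 0.26 for Tcf12 (SE, adjusted p = 0.986). Whether Tcf4 differed from Tcf3 and Tcf12 in this comparison was not tested.

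Of the Id genes, whose products bind E proteins and keep them off DNA, Id1, Id2 and Id4 rose in every intermediate population relative to MEF. Id1 had 242 and 317 CPM in d3_Eff, 334 and 337 in d3_Ineff, 181 and 192 in d6_Eff and 398 and 288 in d6_Ineff, against 20.5 and 21.4 CPM in MEF. Id2 had 220 to 370 CPM in the 8 intermediate libraries, against 9.45 and 16.9 CPM in MEF, and 13.2 and 13.6 CPM in iPSC. Of the 6 E protein and Id genes, 4 rose and none fell in each intermediate population relative to MEF, where 15.0 to 20.9% of all genes rose and 15.0 to 21.7% fell. The remaining 1 was Id3 in d3_Eff, d3_Ineff and d6_Ineff and Tcf3 in d6_Eff. Id3 had 142 ± 6.88 CPM in d6_Eff and 154 ± 29.6 CPM in MEF (SD, n = 2 each), a log2 fold change of -0.11 ± 0.24 (SE, adjusted p = 0.747). In iPSC, 5 of 6 fell relative to d6_Eff and 5 of 6 relative to d6_Ineff, where 15.9% and 23.0% of all genes fell. Id3 fell by 1.39 ± 0.25 on the log2 scale in d6_Eff relative to d6_Ineff (SE, adjusted p = 0.00366), and Id1 fell by 0.88 ± 0.20 on the log2 scale (SE, adjusted p = 0.0119). Id3 fell by 4.64 ± 0.29 on the log2 scale in iPSC relative to MEF (SE, adjusted p = 3.22e-07) and Tcf12 was the other of 2 that fell, with a list median of 0.07.

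Of 27 tissue-restricted bHLH genes, whose products pair with E proteins, 12 passed the filter. Of these, 5 rose and 5 fell in iPSC relative to MEF, where 26.0% of all genes rose and 26.7% fell. Neurod1, Lyl1 and Tal1 passed the filter through iPSC alone, and without them 4 rose and 5 fell. Twist1, a mesenchymal regulator, had 2.47 ± 0.146 CPM in iPSC and 51.5 ± 19.1 CPM in MEF (SD, n = 2 each; log2 fold change -4.39 ± 0.32 SE, adjusted p = 9.22e-07). Hand2 and Scx, factors of limb and heart and of tendon, fell, with log2 fold changes of -6.74 ± 0.64 and -5.80 ± 0.61 (SE, adjusted p = 6.58e-06 and 1.45e-05). The rising genes with the smallest adjusted p were Tcf15, at 56.5 ± 3.25 CPM in iPSC and 0.0258 ± 0.0365 CPM in MEF, then Msc and Bhlha15. On day 6, 3 fell and none rose in d6_Eff relative to d6_Ineff, where 9.25% of all genes fell and 5.38% rose. The 3 were Twist1, Atoh8 and Scx, with log2 fold changes of -2.48 ± 0.30, -5.15 ± 0.62 and -2.78 ± 0.58 (SE, adjusted p = 3.94e-04, 4.26e-04 and 0.00884). The list median there was -2.20, or -1.64 with genes without counts at their bound, beside 0.00 over all genes.

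Of 17 genes tied to NFI factors in earlier work on brain, muscle and bone, 13 passed the filter. Of these, 3 rose and 7 fell in iPSC relative to MEF, where 26.0% of all genes rose and 26.7% fell, with a median of -1.12 beside 0.04 over all genes. The Polycomb methyltransferase gene Ezh2, which Nfib is known to repress in mouse neural progenitors, had 254 ± 13.2 CPM in iPSC and 41.2 ± 2.02 CPM in MEF (SD, n = 2 each), and rose by 2.62 ± 0.18 on the log2 scale (SE, adjusted p = 6.90e-07). Hes1, a Notch effector, rose by 0.81 ± 0.21 and Cntn2, a neuronal adhesion gene, by 5.36 ± 1.78 (SE, adjusted p = 0.00642 and 0.0279), though Cntn2 passed the filter through iPSC alone and so had to differ. Zcchc24, Sox9 and Efnb1 fell, with log2 fold changes of -4.32 ± 0.26, -5.54 ± 0.47 and -3.78 ± 0.36 (SE, adjusted p = 2.35e-07, 3.01e-06 and 7.23e-06). In the intermediates Ezh2 had 167 CPM in d3_Eff, 124 in d3_Ineff, 188 in d6_Eff and 75.8 in d6_Ineff. Nfib had 160, 126, 149 and 163 CPM in the same groups, against 128 in MEF and 11.5 in iPSC (means, n = 2 each). A link between Nfib and Ezh2 was not tested.

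Between d6_Eff and d6_Ineff, Nfic was the NFI gene called in the fit of all 12 libraries. That call was lost in 7 of 19 alternative fits, and Nfia and Nfix were called in 7 and 5 of 19. In this comparison 1 gene of the list rose and 5 fell in d6_Eff, where 5.38% of all genes rose and 9.25% fell. The list median was -1.13 beside 0.00 over all genes. Ezh2 rose to 188 ± 24.1 CPM in d6_Eff, against 75.8 ± 1.03 CPM in d6_Ineff (SD, n = 2 each), by 1.31 ± 0.17 on the log2 scale (SE, adjusted p = 7.03e-04). Zcchc24, Eno3 (the muscle enolase) and Cdh2 (N-cadherin) fell, with log2 fold changes of -2.79 ± 0.25, -1.55 ± 0.21 and -4.52 ± 0.63 (SE, adjusted p = 1.01e-04, 8.73e-04 and 9.95e-04). On day 3, Zcchc24 was the 1 gene called, lower in d3_Eff, where 0.240% of all genes fell and 0.160% rose. Zcchc24 had 4.47 ± 0.74 CPM in d3_Eff and 12.8 ± 0.758 CPM in d3_Ineff (SD, n = 2 each), a log2 fold change of -1.52 ± 0.24 (SE, adjusted p = 0.0305).

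Genes of the tissues for which EBF factors are best known were mostly too low to test. Of 15 adipocyte genes 7 passed the filter, and in iPSC relative to MEF 1 rose and 3 fell, where 26.0% of all genes rose and 26.7% fell. Of these 4, Cidea passed the filter through iPSC alone, and Fabp4 and Pparg through MEF alone, so that the filter set their difference and Cebpa remains as the 1 that fell. Cebpa, a regulator of fat cell differentiation, fell by 2.24 ± 0.33 on the log2 scale in iPSC relative to MEF (SE, adjusted p = 1.66e-04), and in d6_Eff relative to d6_Ineff it fell by 2.59 ± 0.32 on the log2 scale (SE, adjusted p = 5.40e-04), to 4.15 ± 0.805 CPM in d6_Eff, against 25.1 ± 5.01 CPM in d6_Ineff. Fabp4 had no counts in iPSC and 55.2 ± 38.3 CPM in MEF, Pparg had 0.0329 ± 0.0466 CPM in iPSC and 3.64 ± 0.183 CPM in MEF, and Cidea had 1.31 ± 0.0971 CPM in iPSC and no counts in MEF.

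Of 13 B lineage genes 5 passed, and Blnk, Vpreb3 and Cd79b were called higher in iPSC relative to MEF, where 26.0% of all genes were. Blnk, the B cell linker, and Cd79b passed the filter through iPSC alone, so their difference was set by it, and Vpreb3 remains as the 1 that rose. Blnk had 23.8 ± 2.57 CPM in iPSC and 0.0516 ± 0.073 CPM in MEF (SD, n = 2 each), and Vpreb3 and Cd79b had 2.77 ± 0.642 and 2.66 ± 0.241 CPM in iPSC. No B lineage gene was called between Eff and Ineff on either day, where 0.400% of all genes were on day 3 and 14.6% on day 6. Of 4 olfactory neuron genes with EBF sites 3 passed, and Adcy3 and Gnal fell in iPSC relative to MEF, where 26.7% of all genes fell. The log2 fold changes of Adcy3 and Gnal were -1.40 ± 0.44 and -1.42 ± 0.51 (SE, adjusted p = 0.0200 and 0.0355).

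The genes whose pattern lay closest to each of the 8 were taken by Pearson r of log2(CPM + 1) over the 12 libraries, among 11662 protein-coding genes reaching 5 CPM in some group. These values are descriptions, since libraries of a group, depth and the iPSC contrast are shared by all genes. Nfib lay closest to Maml2 (r = 0.992), Flrt2 (r = 0.991) and Nr2f2 (r = 0.989), and Nfix to App, Pogk and Ndst1 (r = 0.989 each). Ebf3 lay closest to Cavin1, Trim16 and Camk2d (r = 0.991 each). Cavin1, a caveolar coat gene, had 871 CPM in MEF, 1231 in d3_Eff, 1578 in d3_Ineff, 795 in d6_Eff, 1451 in d6_Ineff and 47.7 in iPSC, with d6_Eff just below MEF and iPSC lowest, as for Ebf3.

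Ebf1 lay closest to Spryd3 (r = 0.986), Jam3 (r = 0.980) and St3gal2 (r = 0.978). Jam3, a junctional adhesion molecule, had 74.9 CPM in MEF, 30.0 in d3_Eff, 36.0 in d3_Ineff, 6.43 in d6_Eff, 35.7 in d6_Ineff and 12.8 in iPSC, and so shared with Ebf1 the lowest level in d6_Eff. Ebf2 lay closest to Meox1 (r = 0.995), Brinp1 (r = 0.993) and Ndnf (r = 0.992), each nearly restricted to MEF, with Meox1 at 14.0 CPM in MEF and at most 0.279 CPM elsewhere. Nfia lay closest to Mllt3 (r = 0.986), Gdpd5 (r = 0.984) and Ptpre (r = 0.981), Nfic to St5 (r = 0.985), Abca3 (r = 0.977) and Sgsh (r = 0.970), and Tcf4 to Ppp3ca (r = 0.985), Masp1 (r = 0.976) and Plpp1 (r = 0.976). Among the 8 genes themselves, Nfib and Nfix (r = 0.981), Nfib and Ebf3 (r = 0.963) and Ebf1 and Tcf4 (r = 0.961) were closest, and Nfia and Ebf2 (r = -0.115) were farthest apart.

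The promoter windows were searched on both strands for the full NFI palindrome (TTGGC and GCCAA with 5 free bases between them), the EBF palindrome (TCCC and GGGA with 2 free bases between them) and the E box CAGGTG. Each motif was counted on its own, so a base could belong to more than 1. RefSeq windows were listed for 5 of the 8 genes, Nfia, Nfic, Nfix, Ebf1 and Ebf3. No NFI or EBF letters were found in any of their windows, and CAGGTG was found once, in the second window of Nfix. Over all 32851 windows, the NFI letters occurred in 0.0365%, the EBF letters in 0.904% and CAGGTG in 20.2%. Of 145 tested genes with the EBF letters, 22.8% rose and 36.6% fell in iPSC relative to MEF, with a median log2 fold change of -0.36, against 27.7% and 28.8% with a median of 0.01 among all 11366 tested genes with a window. Of 2488 genes with CAGGTG, 31.0% rose and 24.5% fell. Only 5 tested genes held the NFI letters. These shares are descriptions without a test.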

How the data were processed

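The authors deposited 1 table of counts per library, whole reads per Ensembl gene identifier with 37583 genes and 5 summary lines, which were left out of library sizes and tests. Per the labels' protocols the cells were sorted by FACS, and libraries were poly-A selected and made with a directional kit. The submitters' processing notes name build mm9 and the tools HTSeq 0.6.0, STAR 2.3.0 and Picard 1.100. No source used here names the annotation. Counting ignored strand, so reads of a gene and of an antisense partner cannot be told apart. Exons of Nfia, Nfic, Nfix, Ebf2 and Ebf3 overlap those of opposite-strand genes, over at most 6.12% of exon length, and the partners held in the tables reached at most 1.49 CPM.

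Symbols and exon lengths came from GENCODE M21, which is on a later build, and 32860 identifiers (87.4%) had a symbol. Promoter windows came from a RefSeq table. Counts were analysed with edgeR 4.0.16 in R 4.3.3: filterByExpr, TMM, 1 robust quasi-likelihood fit of all 12 libraries with 6 residual degrees of freedom, 12 comparisons, and Benjamini-Hochberg adjustment over 16240 genes, called at an adjusted p under 0.05. The fit was run on simulated data with the same spread in every gene and group. The MEF replicates differ more than those of other groups, so that run does not check calls against MEF. SE is the fold change over the square root of F. Replicates of a group correlated at r = 0.950 in MEF and 0.987 to 0.992 elsewhere over log2 CPM, and their counts differed by more than sampling noise.

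The 8 members and the gene lists were chosen with earlier results of these data known, so no pattern here is independent support. All 8 members were described. From each of 7 lists, in iPSC against MEF and Eff against Ineff of each day, up to 3 called genes in each direction were named by smallest adjusted p, as were the 3 genes most like each member in pattern. Alternatives were RLE scaling, no filter, DESeq2 1.42.0, a replicate block, the ratio of reads outside genes as a covariate, the compared groups alone, and leaving out each library. One more, leaving out MEF replicate 2 and d6_Eff replicate 2 together, was chosen after seeing the data. A floor is 3 counts over a group.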

Additional observations from a re-analysis of the deposited data

Results flagged for a closer look

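For Ebf1 the Eff against Ineff difference changed between days, by a test of that difference in edgeR's quasi-likelihood fit: day 6 minus day 3 gave -2.72 ± 0.47 on the log2 scale (SE, adjusted p = 0.0212). This call was lost in 7 of the 12 fits that left out 1 library (adjusted p from 0.0686 to 0.109). Ebf1 had 1.74 ± 0.557 CPM in d6_Eff and 18.6 ± 2.44 CPM in d6_Ineff, and 11.9 ± 1.48 CPM in d3_Eff and 19.0 ± 0.116 CPM in d3_Ineff (SD, n = 2 each). Among the 8 genes Ebf3 had the next lowest adjusted p, with -1.41 ± 0.48 on the log2 scale (SE, adjusted p = 0.220), and Ebf3 was called in 7 of 19 alternative fits (adjusted p from 8.34e-04 to 0.0218). With groups of 2 libraries no test for single outlying libraries was made.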

How the results depend on the processing

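The falls of Nfia, Nfib, Nfix and Ebf3 in iPSC relative to d6_Eff, d6_Ineff and MEF, and that of Ebf1 in d6_Eff relative to d6_Ineff, kept their direction and call in every alternative. Leaving out 1 library moved the count of all genes called by over 1.5 times in 10 of 12 fits for d3_Eff over d3_Ineff, in 9 for the difference between days and in 0 for iPSC over MEF, and the cause was not tested. A library left alone in its group was taken to vary like the other groups. Whether replicate numbers pair the libraries is not stated. Deviations of same-numbered libraries correlated at -0.194 to 0.426 between groups, which cannot decide it. With the number as a block, 2321 genes were called in d6_Eff over d6_Ineff, against 2375 without it, and no count of members changed. Without the filter, the genes called numbered 459 in d3_Eff over d3_Ineff, 1362 in d6_Ineff over d3_Ineff and 832 in the difference between days. With DESeq2, the genes called numbered 445 in d3_Eff over d3_Ineff, 2280 in d6_Eff over d3_Eff, 1634 in d6_Ineff over d3_Ineff and 833 in the difference between days. With only the compared groups in the fit, the genes called numbered 3247 in d3_Eff over MEF, 2138 in d3_Ineff over MEF, 3968 in d6_Eff over MEF, 2344 in d6_Ineff over MEF, 700 in d3_Eff over d3_Ineff, 5002 in d6_Eff over d6_Ineff, 2443 in d6_Eff over d3_Eff, 2574 in d6_Ineff over d3_Ineff, 7657 in iPSC over d6_Eff and 1237 in the difference between days. With the outside-gene ratio as covariate, the genes called numbered 347 in d3_Eff over d3_Ineff, 3649 in d6_Eff over d6_Ineff, 2239 in d6_Eff over d3_Eff, 2105 in d6_Ineff over d3_Ineff and 797 in the difference between days. Without both libraries rich in reads outside genes (chosen after seeing the data), the genes called numbered 706 in d3_Eff over d3_Ineff, 2693 in d6_Ineff over d3_Ineff and 949 in the difference between days. Without the filter, the members called numbered 5 in d3_Ineff over MEF, 1 in d6_Ineff over d3_Ineff and 2 in the difference between days. With DESeq2, the members called numbered 1 in d6_Ineff over d3_Ineff and 2 in the difference between days. With only the compared groups in the fit, the members called numbered 3 in d3_Eff over MEF, 1 in d3_Eff over d3_Ineff, 3 in d6_Ineff over d3_Ineff and 4 in the difference between days. With the outside-gene ratio as covariate, the members called numbered 6 in d3_Ineff over MEF, 5 in d6_Ineff over MEF, 3 in d6_Ineff over d3_Ineff and 2 in the difference between days. Without both libraries rich in reads outside genes (chosen after seeing the data), the members called numbered 6 in d3_Ineff over MEF, 7 in d6_Ineff over MEF, 1 in d3_Eff over d3_Ineff, 3 in d6_Ineff over d3_Ineff and 3 in the difference between days. Leaving out each library in turn, the genes called ranged from 2946 to 6798 in d3_Ineff over MEF, 3112 to 7237 in d6_Ineff over MEF, 4 to 644 in d3_Eff over d3_Ineff, 930 to 4715 in d6_Eff over d6_Ineff, 657 to 2958 in d6_Eff over d3_Eff, 103 to 2607 in d6_Ineff over d3_Ineff, 2834 to 6815 in iPSC over d6_Eff and 20 to 1349 in the difference between days. Leaving out each library in turn, the members called ranged from 2 to 7 in d3_Eff over MEF, 0 to 5 in d3_Ineff over MEF, 1 to 6 in d6_Ineff over MEF, 0 to 1 in d3_Eff over d3_Ineff, 1 to 6 in d6_Eff over d6_Ineff, 1 to 3 in d6_Eff over d3_Eff, 0 to 3 in d6_Ineff over d3_Ineff and 0 to 3 in the difference between days. With the replicate block, reversed log2 fold changes were 0.024 for Nfic in d6_Ineff over MEF and 0.091 for Nfix in d6_Ineff over MEF. With the outside-gene ratio as covariate, reversed log2 fold changes were 0.0069 for Nfia in d3_Eff over d3_Ineff, 0.22 for Nfic in d6_Eff over d3_Eff, 0.023 for Nfix in d6_Eff over d3_Eff, 0.084 for Ebf1 in d6_Ineff over d3_Ineff and -0.067 for Tcf4 in iPSC over d6_Eff. Without both libraries rich in reads outside genes, reversed log2 fold changes were 0.10 for Nfic in d6_Eff over d3_Eff and -0.29 for Tcf4 in iPSC over d6_Eff. Leaving out each library in turn reversed further changes, with ranges of -0.022 to 1.34 for Nfia in d3_Eff over MEF, -1.21 to 0.92 for Nfix in d3_Eff over MEF, -0.22 to 0.13 for Nfib in d3_Ineff over MEF, -1.45 to 0.37 for Nfic in d3_Ineff over MEF, -1.38 to 0.71 for Nfix in d3_Ineff over MEF, -0.017 to 0.36 for Nfib in d6_Eff over MEF, -1.60 to 0.53 for Nfix in d6_Eff over MEF, -0.59 to 0.44 for Ebf3 in d6_Eff over MEF, -0.77 to 1.05 for Nfic in d6_Ineff over MEF, -0.76 to 1.34 for Nfix in d6_Ineff over MEF, -0.38 to 0.15 for Nfia in d3_Eff over d3_Ineff, -0.17 to 0.31 for Nfia in d6_Eff over d3_Eff, -0.49 to 0.077 for Nfic in d6_Eff over d3_Eff, -0.17 to 0.066 for Ebf1 in d6_Ineff over d3_Ineff, -0.12 to 0.18 for Tcf4 in d6_Ineff over d3_Ineff, -0.30 to 0.46 for Tcf4 in iPSC over d6_Eff and -4.76 to 5.39 for Ebf2 in iPSC over d6_Ineff, where fitted values rest on at most 12 counts a library. Without d6_Ineff replicate 2, Ebf2 gave no value in d6_Eff over d6_Ineff or d6_Ineff over d3_Ineff, nor in iPSC over d6_Eff without iPSC replicate 1. Depth limits Ebf2 outside MEF and Ebf3 in iPSC.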

Other observations

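The summed level of 10 leukocyte markers was 202 to 487 CPM in the 8 intermediate libraries, 48.1 and 53.4 CPM in iPSC and 8.31 and 15.9 CPM in MEF. Most of it was Laptm5 in the intermediates and iPSC, while Laptm5 had 0.413 and 0.977 CPM in MEF. Ptprc, which marks nearly all leukocytes, had no counts in 7 of the 8 intermediate libraries and 3 counts in d3_Ineff replicate 1. The summed level of 11 neural markers was 78.1 to 283 CPM over the 12 libraries, and that of 6 adipocyte markers at most 1.84 CPM.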
